A study of Mus musculus with 4 samples.

Results

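The genes described here are those of the lysosome as an organelle: the proton pump that acidifies it, the hydrolases that work inside it, its membrane proteins, the receptors that bring enzymes to it, and the transcription factors of the TFEB family. They were chosen by name, from a list of 47 genes set by function. Of these, 45 had a probe set that the array's annotation assigns to that gene alone and that passed the filter on dim signals, out of 12565 genes measured in the series. The other 2, Atp6v0c and Cd63, were not analysed here. The list itself uses no measured value, though it was drawn up with earlier results of these data known, and the filter rests on measured signals.

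Lysosomes degrade proteins, lipids and sugars that reach them by endocytosis or inside autophagosomes, and their enzymes need the low pH that the vacuolar ATPase (V-ATPase) maintains. The pump has a membrane sector, V0, through which protons pass, and a cytosolic sector, V1, which splits ATP. TFEB, TFE3 and MITF bind E-box elements in the promoters of many lysosomal genes and are controlled largely by phosphorylation, which keeps them out of the nucleus in fed cells. In skeletal muscle the autophagy-lysosome route is one of the systems that break down protein on fasting, and loss of the lysosomal glycosidase GAA causes the glycogen storage disease of muscle known as Pompe disease.

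Gastrocnemius muscle was taken from male mice of a C57BL/6N and FVBN cross. Mice were 2 to 4 months old, a range stated for the experiments as a whole and not for these arrays alone. Control mice carried floxed FoxO1, FoxO3 and FoxO4 alleles without Cre (FoxO1,3,4 f/f, named wild type in the labels), and knockout mice (FoxO1,3,4-/-) carried the same alleles with Cre driven by the myosin light chain MLC1f promoter, which the study describes as active in type II and not in type I fibres. FoxO genes are therefore kept in type I fibres and in the other cells of the knockout muscle. Mice of each genotype were fed or starved for 24 h, and RNA of 6 muscles from 3 mice was pooled in equal amounts for each of the 4 conditions, with 1 array per pool. There is no replicate, so no test, SD between samples or p-value can be given for any value below, and a change is called at the 1.5-fold threshold of the study's methods.

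The values are signals, a brightness on a linear scale that the authors derived with MAS 5.0. The probe sets that stand for the knocked-out genes showed Foxo4 at 296.9, 291.3, 31.3 and 34.3, and Foxo1 at 303.8, 554.4, 185.2 and 165.5, on the fed control, starved control, fed knockout and starved knockout arrays. Foxo3 did not separate the genotypes, and where its probe set lies was not analysed here. Markers of muscle fibres (10 of 10 measured) had signals from 9282.5 to 18804.9. The median signal of an array was 26.3 and 26 in fed and starved controls and 23.8 and 22.9 in fed and starved knockouts, so the knockout arrays were dimmer as a whole. Of 10 skin genes, the 5 of the hair follicle were high on the fed control and starved knockout arrays. Krt25, for example, had 252.9 and 318.5 there, against 6.9 and 18.2 on the starved control and fed knockout arrays. The 5 of the epidermis were lowest on the fed control array, as Lor with 12.5 against 177.5, 132.8 and 131.5 on the other 3. The part of skin in the results below was not tested. Different probe sets of a gene give the only measure of scatter here. For a log2 fold change on starvation in controls its SD was 0.62 for probe sets with a mean signal under 100, 0.35 from 100 to 300, 0.29 from 300 to 1000 and 0.30 above 1000, and it leaves out differences between mice.

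E-boxes were found in the promoters of several of these genes, and the sequences are shown because the TFEB family acts through them. Promoter sequences of RefSeq (build GRCm38.p6, 250 bases before to 50 after a gene's start) were found for 36 of the 45 genes. The E-box CACGTG, which reads the same on both strands, was in the window of 13 of these 36, which is 36.1%, against 8.09% of the 27025 genes with a window. Its longer form TCACGTGA, which contains it and is the core of the CLEAR elements of lysosomal genes, was in 7 of 36, or 19.4%, against 1.12% of those genes. The FoxO motif GTAAACA, searched on both strands, was in none of the 36 and in 4.05% of those genes. For a list of 36 genes, none is near that share. A gene counts once, whether it has 1 window or several. The 27025 genes include ones that were not measured here or did not pass the filter. Of the genes measured here with a window, 1179 had CACGTG and 8959 did not. The longer form and the FoxO motif were not counted among measured genes alone. A match is a description of the letters and not a site of binding. The promoter of Lamp1, a main glycoprotein of the lysosomal membrane, holds 4 E-boxes within 90 bases before its start, and that of Gaa holds 1 at position -140. Each is printed 5′ to 3′ on the gene's strand, with E-boxes in capitals:
Lamp1, chr8:13159071-13159160, plus strand: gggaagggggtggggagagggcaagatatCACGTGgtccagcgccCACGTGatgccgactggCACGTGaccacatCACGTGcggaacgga
Gaa, chr11:119267713-119267962, plus strand: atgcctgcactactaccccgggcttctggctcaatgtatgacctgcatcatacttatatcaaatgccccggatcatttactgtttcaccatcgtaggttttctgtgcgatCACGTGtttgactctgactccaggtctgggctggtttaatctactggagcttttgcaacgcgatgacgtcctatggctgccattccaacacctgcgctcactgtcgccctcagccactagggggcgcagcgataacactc

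The longer form stands in the promoters of 3 pump subunits, of a chloride-proton exchanger and a calcium channel, of a glycosidase and of a sorting receptor. For each of these 7 genes 30 bases are shown, with the E-box again in capitals and 1 site per gene:
Atp6v1a, chr16:44139373-44139402, minus strand: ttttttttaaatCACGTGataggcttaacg
Atp6v0d1, chr8:105566050-105566079, minus strand: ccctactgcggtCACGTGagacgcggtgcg
Atp6v0e, chr17:26676387-26676416, plus strand: tagcgcgccgatCACGTGagcctctgttga
Clcn7, chr17:25133386-25133415, plus strand: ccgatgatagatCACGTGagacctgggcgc
Gla, chrX:134601215-134601244, minus strand: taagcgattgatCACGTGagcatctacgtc
Igf2r, chr17:12769737-12769766, minus strand: gaacgaggacgtCACGTGagcaggaggcgg
Mcoln1, chr8:3500462-3500491, plus strand: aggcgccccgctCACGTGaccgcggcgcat

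On starvation the lysosomal genes as a whole stayed close to their fed level in both genotypes, and Npc1 and Atp6v1h were the exceptions. In control muscle 2 of the 45 genes, or 4.44%, rose at 1.5-fold, against 9.23% of all genes, and none fell, against 14.2% of all genes. In knockout muscle Atp6v1h was the only one of the 45 that rose, against 7.39% of all genes, and none fell, against 9.45%. Lysosomal genes are mostly bright, and of the 7880 genes with a mean signal of 100 or more, which 41 of the 45 reach, 6.29% rose and 10.3% fell in controls, while 3.26% rose and 5.19% fell in knockouts. Npc1 alone of the 45 rose in controls and stayed under 1.5-fold in knockouts, as did 6.6% of all genes. The ratio of starved to fed signal lay between 0.8 and its inverse in both genotypes for 31 of the 45. How many of all genes lay in that range was not counted. The median log2 fold change of the 45 was -0.05 in controls and -0.05 in knockouts, where all genes had medians of -0.11 and -0.06.

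Between the genotypes, controls had the higher log2 fold change for 26 of the 45 genes, which is 57.8%, against 45.7% of all genes. The difference, taken as control minus knockout for each gene, had a median of 0.06. For 37 genes the difference was within 1 SD of the scatter between probe sets of genes of like signal. For 1, Npc1, it was above 2 SD. The same counts over all genes were not made. Of the 29 lysosomal genes with more than 1 probe set past the filter, 14 had the same sign of the difference on all of them. That share was not counted over all genes either.

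**Figure D1:**
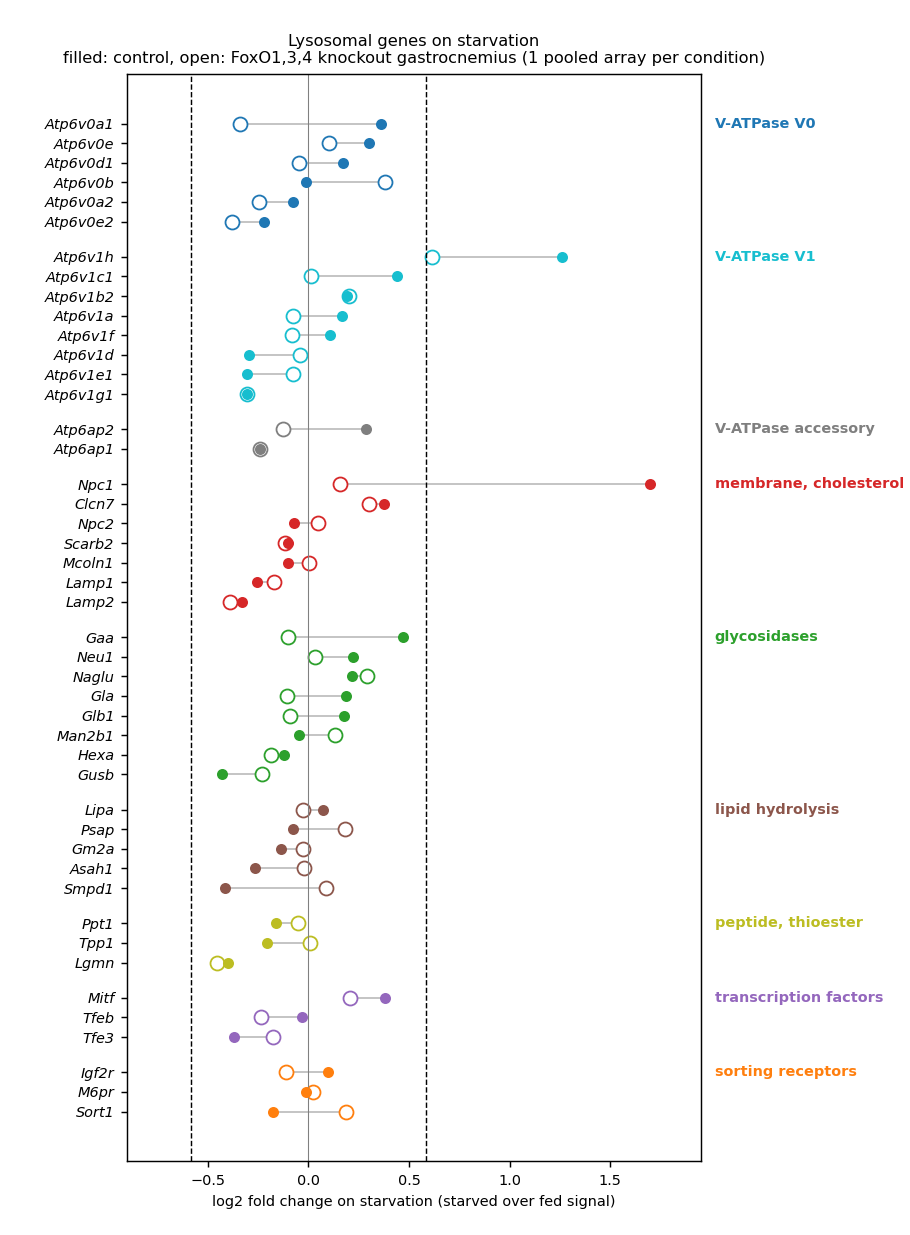
Response of the 45 lysosomal genes to starvation, grouped by role, as the log2 ratio of starved over fed signal (horizontal axis), with controls filled and knockouts open, each from 1 pooled fed and 1 pooled starved array. The dashed lines stand at 1.5-fold in either direction; only Npc1 and Atp6v1h pass the upper line, and a filled point inside an open one means nearly the same value in both genotypes.

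Npc1 had the largest response of the 45 genes and the largest difference between the genotypes. It encodes the membrane protein that moves cholesterol out of the lysosome. Its signal was 235.8 in fed control, 765.9 in starved control, 170.6 in fed knockout and 190.5 in starved knockout gastrocnemius. The starved control array thus stood above the other 3, which lay within 170.6 to 235.8. The ratio of starved to fed was 3.25 in controls and 1.12 in knockouts, and the log2 fold changes of 1.70 and 0.16 differed by 1.54, against a scatter SD of 0.38 for this difference. Npc1 ranked 169 of the 12565 genes by its fold change in controls. Npc1 has 1 probe set, so no other probe set could be compared.

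Its luminal partner Npc2, which hands cholesterol to NPC1, was at 1418.8, 1349.0, 1093.8 and 1128.8 in the same order of arrays, with ratios of 0.951 and 1.03. Of the other genes of the lysosomal membrane, none passed 1.5-fold on starvation in either genotype. Clcn7, a chloride-proton exchanger, had ratios of 1.30 in controls and 1.23 in knockouts, and Mcoln1, a calcium channel through which lysosomes signal to TFEB, had 0.931 and 1.00. Lamp1 and Lamp2, the main membrane glycoproteins, were slightly below their fed signal in both genotypes, with ratios of 0.839 and 0.889 for Lamp1 and 0.796 and 0.763 for Lamp2. The probe sets of Lamp2 disagreed in direction, with ratios from 0.796 to 1.30 in controls. Scarb2, the receptor that carries glucocerebrosidase to lysosomes, had 0.933 and 0.923.

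Atp6v1h was the pump subunit that responded most. It encodes the H subunit of V1, which takes part in switching the pump on and off. Its signal was 336.8 in fed and 807.9 in starved controls, and 322.0 in fed and 493.4 in starved knockouts. Fed muscle of both genotypes had nearly the same signal, and both starved arrays were higher, control more than knockout. The ratios were 2.40 in controls and 1.53 in knockouts, the second just above the threshold, and the log2 fold changes of 1.26 and 0.62 differed by 0.65, within 2 SD of a scatter of 0.38. A second, dim probe set had signals of 25.3, 85.0, 30.6 and 43.1 in the same order, with ratios of 3.36 and 1.41.

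The other V-ATPase genes stayed under 1.5-fold on starvation. With Atp6v1h, 12 of the 16 measured had the higher log2 fold change in controls, against 45.7% of all genes. These include Atp6ap1 and Atp6v1g1, whose values were almost the same in both genotypes. The other probe sets of Atp6v0a1, Atp6v0a2, Atp6v1c1 and Atp6v1g1 did not all share this direction. The median of the difference was 0.18 over the 16 and -0.04 over all genes. The median log2 fold change of the 16 was 0.14 in controls and -0.08 in knockouts. Of the 15 other than Atp6v1h, Atp6v1c1 had the highest ratio in controls. It encodes subunit C, which is lost from the complex when V1 and V0 come apart, and its signals were 521.3, 706.3, 500.4 and 505.5, with ratios of 1.35 and 1.01. One of its 3 probe sets went the other way, with 0.752 in controls and 1.02 in knockouts.

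Atp6ap2, the accessory subunit also known as the prorenin receptor, was at 1516.3 in fed and 1849.3 in starved controls, and at 1286.4 and 1178.2 in fed and starved knockouts. All of its 3 probe sets had a higher log2 fold change in controls, by 0.03 to 0.57. Atp6v1a, the catalytic subunit of V1, was at 502.9, 564.0, 380.2 and 360.2, with ratios of 1.12 and 0.947. Its other probe set had ratios of 1.36 and 0.738, again higher in controls. Atp6v1b2, the other subunit of the ATP-splitting ring, had 1.14 and 1.15, and thus nearly equal ratios in both genotypes.

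In the V0 sector, Atp6v0a1, which encodes an isoform of the large membrane subunit, was at 111.8, 143.4, 161.4 and 127.3 on the fed control, starved control, fed knockout and starved knockout arrays. Its ratio was 1.28 in controls and 0.789 in knockouts, so that it was above 1 in one genotype and below 1 in the other, but its 2 dimmer probe sets had ratios of 0.736 and 0.174 in controls and the difference turned to -0.45 with the mean over probe sets. Atp6v0b, a proteolipid of the rotor, went the opposite way, with signals of 715.4, 710.1, 754.1 and 981.1 and ratios of 0.993 and 1.30. All 3 probe sets of Atp6v0b had the lower log2 fold change in controls. The other 2 did not rise in knockouts, with ratios of 0.948 and 0.994 there and 0.860 and 0.831 in controls. The stalk and rotor partners Atp6v1d and Atp6v1e1 had ratios of 0.815 and 0.810 in controls and 0.971 and 0.948 in knockouts. The other probe sets of Atp6v1d went the opposite way, with 1.00 and 0.955 in controls and 0.925 and 0.904 in knockouts. Those of Atp6v1e1, which are dimmer, disagreed with each other, with differences of -2.30 and 1.45. Atp6v0d1 and Atp6v1f, subunits of the stalk, had ratios of 1.13 and 1.08 in controls and 0.967 and 0.944 in knockouts. Atp6v0a2, another isoform of the large membrane subunit, had 0.947 and 0.843, and Atp6v0e2, an isoform of a small one, had 0.857 and 0.768. Atp6v1g1 and Atp6ap1 had the same ratios in both genotypes, 0.810 for Atp6v1g1 and 0.847 for Atp6ap1.

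None of the 16 hydrolases and activator proteins passed 1.5-fold on starvation in either genotype. Their median log2 fold change was -0.10 in controls and -0.03 in knockouts, close to the medians of all genes. Gaa, the glycosidase that degrades glycogen in lysosomes, had the highest ratio in controls. Its signal was 797.7 in fed and 1103.1 in starved controls, and 648.4 and 603.5 in fed and starved knockouts, so that starved control was the highest and starved knockout the lowest of the 4. The ratios were 1.38 and 0.931, and its other probe set had 1.59, which is past 1.5-fold, and 1.15. The difference of the log2 fold changes was 0.57 on the first and 0.47 on the second probe set.

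The other glycosidases had ratios from 0.743 to 1.22. Neu1 (a sialidase), Glb1 (lysosomal beta-galactosidase) and Gla (alpha-galactosidase A, dim, with signals from 29.9 to 34.0) had ratios of 1.16, 1.13 and 1.14 in controls and 1.02, 0.938 and 0.930 in knockouts. Naglu, an enzyme of heparan sulfate breakdown, had 1.16 and 1.22. Gusb, beta-glucuronidase, had the lowest ratio of the glycosidases, 0.743 in controls and 0.852 in knockouts. Hexa, the alpha subunit of beta-hexosaminidase, had 0.920 and 0.878, and Man2b1, a mannosidase, had 0.968 and 1.10.

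Among the genes of lipid breakdown 1 of 5 had the higher log2 fold change in controls. Over all genes 45.7% did, a share that 5 genes are too few to be set against. The probe sets of Gm2a and those of Lipa disagreed in the sign of the difference. Smpd1, acid sphingomyelinase, was at 846.9 in fed and 634.7 in starved controls, and at 738.0 and 783.8 in fed and starved knockouts. On this probe set the starved control array was the lowest of the 4, and the ratios were 0.749 and 1.06. The other, dimmer probe set of Smpd1 had 103.6, 71.6, 84.8 and 65.2 in the same order, with ratios of 0.691 and 0.769. It was thus lower on starvation in both genotypes, and lowest on the starved knockout array. Both probe sets had the lower log2 fold change in controls, by 0.50 and 0.15. Asah1, acid ceramidase, had 0.830 and 0.986, and Psap, the precursor of the saposins that present sphingolipids to their hydrolases, had 0.947 and 1.14. Gm2a, the activator for ganglioside breakdown, had 0.908 and 0.982, and Lipa, which frees cholesterol from its esters, 1.05 and 0.980. The median of the difference over the 5 was -0.25.

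The peptidases and the thioesterase Ppt1 had ratios under 1 in controls. Tpp1, a tripeptidyl peptidase, was at 1155.7, 1001.2, 1063.0 and 1068.6 in the same order of arrays, with ratios of 0.866 and 1.01. Its other probe set had 456.5, 307.8, 440.5 and 481.9, with ratios of 0.674 and 1.09. Lgmn, legumain, which cleaves after asparagine, was at 272.3 in fed and 206.6 in starved controls, and at 237.2 and 172.9 in fed and starved knockouts. It was lower on both starved arrays than on both fed ones, with ratios of 0.759 and 0.729. Ppt1 had 0.895 and 0.966.

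The transcripts of the 3 transcription factors stayed under 1.5-fold. Tfeb was at 208.0, 203.7, 224.8 and 191.1 on the fed control, starved control, fed knockout and starved knockout arrays, with ratios of 0.979 and 0.850, so that both starved arrays lay slightly below both fed ones. Tfe3 was at 121.3, 93.9, 131.7 and 116.7, with ratios of 0.774 and 0.886. Mitf went from 348.4 to 453.8 in controls and from 329.4 to 380.4 in knockouts, with ratios of 1.30 and 1.15, and was thus higher on both starved arrays. Its other, dim probe set had ratios of 1.67 and 0.993. Transcript levels say nothing of the phosphorylation or place of these proteins in the cell.

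Of the sorting receptors, M6pr, the small receptor for mannose 6-phosphate tags, had ratios of 0.991 and 1.02, and Igf2r, the large one, 1.07 and 0.925. Sort1, sortilin, which also sorts the glucose transporter GLUT4 in muscle and fat, differed between genotypes more than with starvation. Its signal was 450.6 in fed and 398.5 in starved controls, and 248.8 in fed and 282.7 in starved knockouts, so that both knockout arrays lay below both control arrays.

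**Figure D2:**
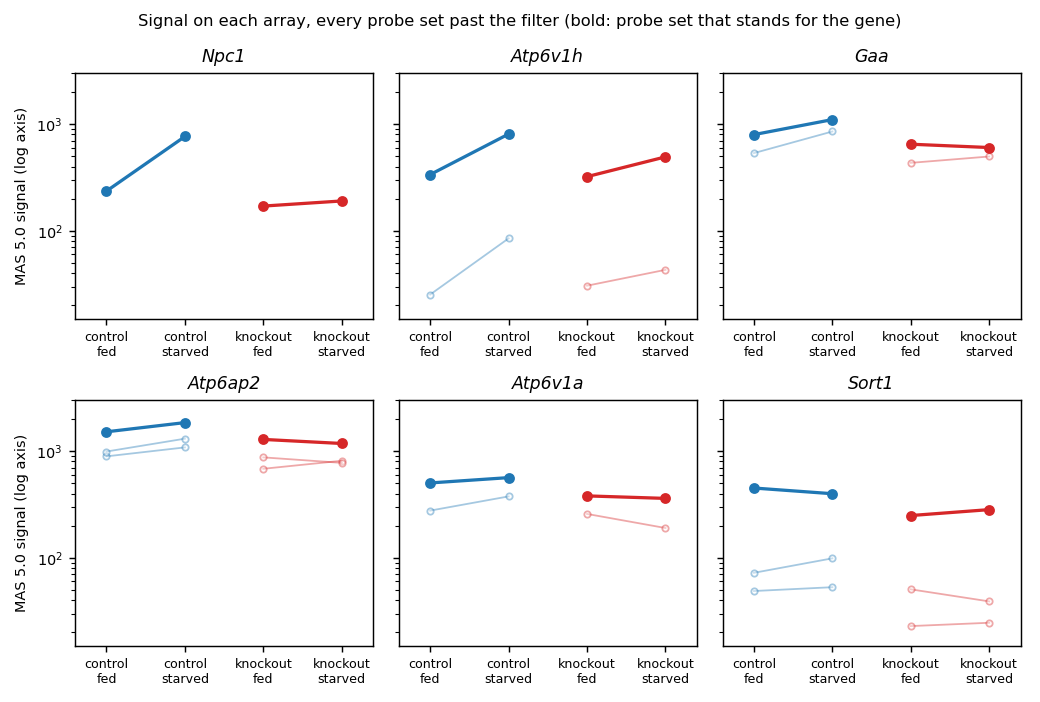
Signal on each of the 4 arrays (log axis) of the genes with the largest responses or genotype ratios, with control arrays in blue and knockout arrays in red and every probe set past the filter drawn, the one that stands for the gene in bold. For Npc1 the starved control array, at 765.9, stands above the other 3 arrays, and for Sort1 both control arrays lie above both knockout arrays on each probe set.

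The genotypes were also compared directly, within fed and within starved muscle, and these ratios share arrays with the responses to starvation above. The knockout arrays were dimmer as a whole: the median log2 ratio of knockout over control over all genes was -0.20 in fed and -0.16 in starved muscle, and that of the 45 lysosomal genes was -0.18 and -0.19. The lysosomal genes thus lay 0.01 above the median of all genes in fed and 0.02 below it in starved muscle. In fed muscle Sort1 was the only one of the 45 that was lower at 1.5-fold in knockouts, 2.22% of them against 11.3% of all genes, and none was higher, against 3.38%. In starved muscle 5 were lower, 11.1% of them against 14.6% of all genes, and none was higher, against 6.39%. Among genes with a mean signal of 100 or more, 5.09% were lower and 0.546% higher in fed knockouts, and 10.7% lower and 3.12% higher in starved knockouts.

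The 5 genes lower in starved knockouts were Npc1, Gaa, Atp6v1h, Atp6v1a and Atp6ap2, with ratios of knockout over control of 0.249, 0.547, 0.611, 0.639 and 0.637. In fed muscle the ratios of the same genes were 0.724, 0.813, 0.956, 0.756 and 0.848. With the arrays scaled to a common median, a common trimmed mean or quantiles, Npc1 and Gaa remained past 1.5-fold. The 3 pump genes did not. Atp6v0b passed it in the other direction on the probe set that stands for it. Before scaling that probe set had a ratio of 1.38, and the other 2 of Atp6v0b had 1.05 and 0.882. All 3 probe sets of Atp6ap2, both of Atp6v1a and both of Gaa were lower in starved knockouts than in starved controls. The starved control array is shared by these ratios and by the responses of control muscle, so the low knockout ratio of Npc1 is not separate evidence for its response.

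Sort1 had a ratio of knockout over control of 0.552 in fed and 0.709 in starved muscle. Its other 2 probe sets had 0.469 and 0.700 in fed and 0.464 and 0.395 in starved muscle, so that all 3 were lower in knockouts in both states. Sort1 remained past 1.5-fold in fed muscle under each of the 3 scalings.

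**Figure D3:**
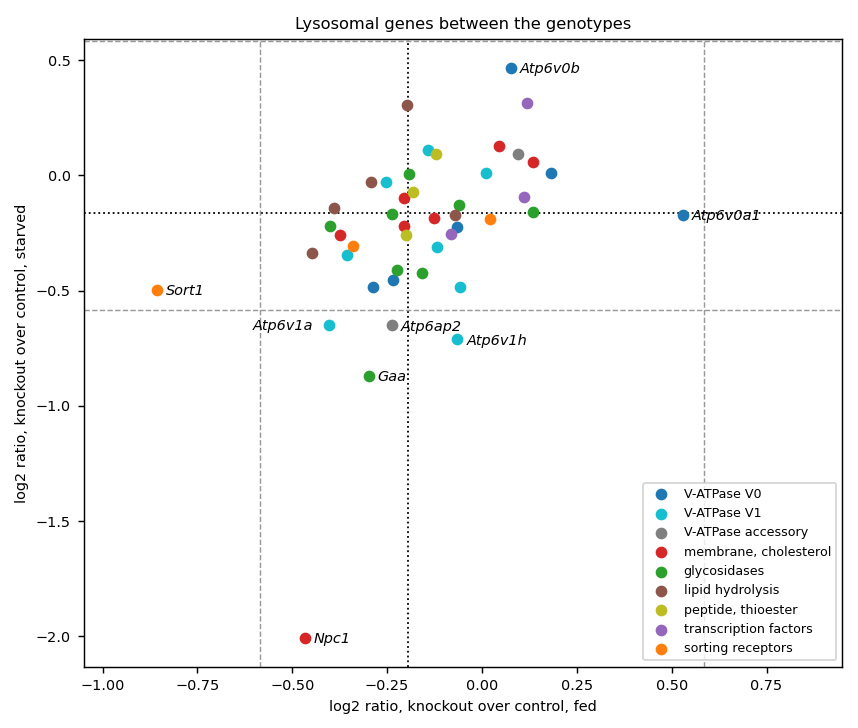
Log2 ratio of knockout over control signal in fed (horizontal) and starved (vertical) gastrocnemius for the 45 lysosomal genes, coloured by role. Dotted lines mark the median of all genes (-0.20 fed, -0.16 starved) and dashed lines 1.5-fold; Sort1 alone lies left of the dashed line in fed muscle and 5 genes lie below it in starved muscle.

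Cells other than fibres also express lysosomal genes, and most macrophage markers were lower on the knockout arrays. The summed signal of 12 macrophage markers, all 12 of them measured, was 8271.8 in fed control, 7369.9 in starved control, 6384.3 in fed knockout and 5546.0 in starved knockout gastrocnemius. All 12 were lower in fed knockouts than in fed controls, and 11 of 12 in starved muscle. Their median log2 ratio was -0.38 in both states, where all genes had -0.20 and -0.16. The share of all genes that were lower in knockouts was not counted. Of the 8959 measured genes with a promoter window but no CACGTG, 21.9% were above controls in fed and 33.3% in starved knockouts. Most of these genes were thus not above controls in either state. Endothelial markers were lower for 6 of 6 in both states, with medians of -0.29 and -0.35. Fibroblast markers were lower for 6 of 6 in fed and 5 of 6 in starved muscle, with medians of -0.17 and -0.14. These fibroblast medians are close to those of all genes. Lists of 6 markers are too short for their counts to be told from the dimmer signal of the knockout arrays. Cd68, itself a lysosomal membrane protein of macrophages, was at 140.8, 127.5, 106.0 and 147.3, and Csf1r at 1799.8, 1634.8, 1398.5 and 1184.2. On starvation the macrophage list had a median log2 fold change of -0.34 in controls and -0.38 in knockouts. The 45 lysosomal genes had -0.05 in both genotypes, and none fell at 1.5-fold. Of the 12 markers, 4 fell at 1.5-fold in each genotype, against 14.2% of all genes in controls and 9.45% in knockouts. Of 5 fat cell markers 3 were measured, and Adipoq, Retn and Lep had ratios of knockout over control of 0.845, 0.619 and 0.459 in fed and of 0.556, 0.537 and 1.08 in starved muscle. Lep thus did not share the lower level of the other 2 in starved knockouts. The part of these cells in the ratios of lysosomal genes was not tested, and in pooled muscle RNA fewer cells of a type cannot be told from less RNA per cell.

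The genes with an E-box in their promoter were compared with the others. Of the 13 lysosomal genes with CACGTG, 9 were above their fed signal in starved controls and 5 in knockouts, and none passed 1.5-fold in either genotype. Of the 23 with a promoter window but no CACGTG, 6 were above their fed signal in controls and 7 in knockouts. The median log2 fold change of the 13 was 0.17 in controls and -0.08 in knockouts, and that of the 23 was -0.12 and -0.08. Both groups overlapped, from -0.40 to 0.47 with the E-box and from -0.43 to 0.38 without it in controls. Over all genes measured with a promoter window, the 1179 with CACGTG had a median of -0.06 and the 8959 without it -0.12 in controls. In knockouts these medians were -0.03 and -0.06. Above their fed signal were 44.3% of the 1179 and 39.7% of the 8959 in controls, and 44.3% and 42.2% in knockouts. Averaged over probe sets, the medians of the 13 and the 23 lysosomal genes in controls were 0.18 and -0.12. The genes with the longer form include Atp6v1a and Atp6v0e, which had ratios of 1.12 and 1.23 in controls and 0.947 and 1.07 in knockouts, and Mcoln1 with 0.931 and 1.00. Npc1 and Atp6v1h are not among the 36 genes with a promoter window. These groups were not compared by a test, since genes are not replicates.

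**Figure D4:**
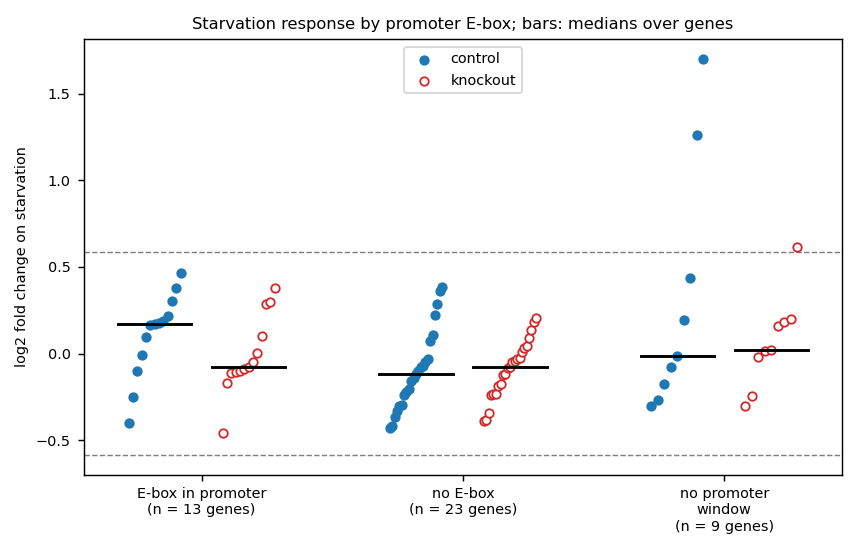
Log2 fold change on starvation of lysosomal genes with an E-box in the promoter window (13 genes), without one (23) and without a window (9), in control (filled) and knockout (open) gastrocnemius. Points are genes, bars are medians over genes and dashed lines mark 1.5-fold; in controls the median is 0.17 with and -0.12 without an E-box, and the points of both groups overlap.

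Other genes of the pathway were taken from lists set by function. Of 28 further lysosomal hydrolases and membrane proteins measured, 3 rose and 4 fell at 1.5-fold in controls, and none rose and 3 fell in knockouts, with medians of -0.07 and -0.09. Over all genes 9.23% rose and 14.2% fell in controls and 7.39% rose and 9.45% fell in knockouts, so that the counts in controls were near the share of all genes. Idua, an enzyme of glycosaminoglycan breakdown, went from 105.8 to 192.9 in controls and from 134.8 to 140.6 in knockouts, and Galc and Tpcn2, which also rose, had signals under 50. Arsb, a sulfatase, fell in both genotypes, with ratios of 0.611 and 0.540, as did the dim Sgsh. Pla2g15, a lysosomal phospholipase, had 0.713 in controls and fell in knockouts, with a ratio of 0.661. Aga and Manba, enzymes of glycoprotein breakdown, fell in controls only by the threshold, with ratios of 0.637 and 0.652 against 1.01 and 1.36.

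Of 16 regulators and coregulated genes of the TFEB family, 2 rose and 1 fell at 1.5-fold in controls and 1 rose in knockouts, with medians of 0.14 and 0.03. With so few genes these counts are near the shares over all genes, 9.23% and 14.2% in controls and 7.39% in knockouts. Flcn, folliculin, which helps mTORC1 to keep TFEB phosphorylated, went from 580.9 to 955.6 in controls and from 409.3 to 542.5 in knockouts, with ratios of 1.65 and 1.33. Sqstm1, the autophagy receptor p62, went from 2022.5 to 3370.8 and from 1391.4 to 1823.9, with ratios of 1.67 and 1.31, and the study picked this gene partly on these arrays. Rragd, a Rag GTPase, fell from 2269.2 to 1483.3 in controls and went from 2417.4 to 2110.1 in knockouts. The transmembrane glycoprotein gene Gpnmb rose in knockouts, from 62.6 to 114.4, with a ratio of 1.32 in controls.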

How the data were processed

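One pool of gastrocnemius RNA (6 muscles, 3 mice) stood for each condition and was hybridized to an Affymetrix whole-genome mouse array, 4 arrays in all. The authors deposited linear signal intensities from MAS 5.0, and Affymetrix Expression Console appears in the submitters' processing notes. No source used here gives the scaling target, and signals were used without rescaling.

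Fold changes were ratios of signals (Python 3.11.15, numpy 2.4.6, pandas 2.3.3, matplotlib 3.10.9). Signals of 0 were replaced by 0.1. Of 45037 probe sets other than Affymetrix controls, 34945 have 1 gene in the platform annotation, 932 several while 9160 have no entry. The symbols of 34741 were brought up to date through the mouse RefSeq table of GRCm38.p6. Probe sets that stayed below the 50th percentile on all arrays were dropped, and the brightest remaining probe set, by mean signal, stood for its gene. Of 45 genes, 36 matched a promoter entry. The number of arrays limits the precision. Calling was tested on simulated data.

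All 4 signals are given for genes past 1.5-fold on starvation, for the largest response and the largest difference in each role group, and for Tfeb, Tfe3 and Mitf; other signals were chosen after the values were seen. The genes and lists were chosen with earlier results of these data known. Alternatives were array scaling, the filter, an offset, the probe set and the threshold.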

Additional observations from a re-analysis of the deposited data

Results flagged for a closer look

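Atp6v0a1, a subunit of the V0 sector, was above its fed signal in one genotype and below it in the other, with ratios at least 1.5-fold apart: its log2 fold change on starvation was 0.36 in controls and -0.34 in knockouts, a difference of 0.70. The difference was not tested, since each condition has 1 array. Its scatter SD was 0.47 for genes of like signal, and its 2 dimmer probe sets had differences of -0.33 and -1.73.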

How the results depend on the processing

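No paired analysis was possible because each condition has 1 array. Npc1 and Atp6v1h were past 1.5-fold in controls under every alternative run, and Npc1 stayed under it in knockouts, with log2 fold changes of 1.58 to 1.78 and of 0.14 to 0.22. The difference for Atp6v0a1 turned from 0.70 to -0.45 with the mean over all probe sets. Counts of 1 or 2 genes move easily. Scaling the arrays, which lifts the knockout arrays, moved the ratios between genotypes: with the same median, the same trimmed mean or quantile normalization, 1 gene was higher in fed and 1 in starved knockouts and 2 instead of 5 were lower in starved knockouts. The median log2 ratio of the 45 genes was then -0.037, 0.012 and 0.032 in fed and -0.0029, -0.0086 and -0.0012 in starved muscle, in that order. That of all genes was -0.051, -0.0015 and -0.0022 in fed and 0.022, 0.016 and 0.019 in starved muscle. With an offset of 32 signal units, 0 genes rose in knockouts and 2 rose in controls while staying under 1.5-fold in knockouts. With the mean over all probe sets, 3 fell in controls, 0 rose and 2 fell in knockouts, 1 was higher and 2 were lower in fed knockouts than in fed controls, and 2 rose in controls while staying under 1.5-fold in knockouts. With a rise of 25% or its inverse as the threshold, 7 rose and 5 fell in controls, 2 rose and 4 fell in knockouts, 6 rose in controls only by the threshold, 1 was higher and 9 were lower in fed knockouts, and 1 was higher and 13 were lower in starved knockouts. At 2-fold, 0 rose in knockouts, 0 were lower in fed and 1 was lower in starved knockouts, and 2 rose in controls while staying under the threshold in knockouts. The shares of all genes called under these alternatives were not counted, so these counts cannot be set against all genes. The causes were not tested. With a filter at the 75th percentile 41 of the 45 genes were left.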

Other observations

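Of 15 genes that tag lysosomal enzymes with mannose 6-phosphate or carry them from the Golgi, none rose at 1.5-fold in either genotype, where 9.23% of all genes rose in controls and 7.39% in knockouts, a share that 15 genes are too few to be set against. Gga2, a Golgi adaptor that binds the mannose 6-phosphate receptors, fell from 356.0 to 235.3 in controls, and was at 344.9 and 337.9 in fed and starved knockouts. Cln8, which helps enzymes leave the endoplasmic reticulum, was at 195.2 and 162.7 in fed and starved controls and fell from 152.4 to 94.3 in knockouts. Gnptab, a subunit of the phosphotransferase that starts the tag, had ratios of knockout over control of 0.614 in fed and 0.706 in starved muscle.

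Of the tissue-restricted isoforms of the pump, Atp6v0a4, Atp6v0d2, Atp6v1b1, Atp6v1c2 and Atp6v1g2 did not pass the filter on dim signals and had signals of 21.7 or less on every array. Tcirg1, the isoform of the large membrane subunit known from osteoclasts, was at 85.5, 77.7, 60.9 and 76.9 on the fed control, starved control, fed knockout and starved knockout arrays. Dnase2a, the DNase of lysosomes, had the lowest ratio of starved knockout over starved controls among the further lysosomal genes, 0.364, with signals of 164.9, 233.1, 93.5 and 84.9 in the same order.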
